A study of Mus musculus with 12 samples.

Results

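The comparison set 3T3-L1 cells carrying an FHL2-GFP overexpression construct after 2 days of adipogenic induction against the same line before induction. It used 6 of the 12 libraries of the study, 3 at day 0 and 3 at day 2, which were chosen by their labels alone; the other 6 came from cells with a control GFP construct. 3T3-L1 is a mouse embryo fibroblast line committed to the fat lineage, which the labels class as mesenchymal stem cells. Day 0 cells were post-confluent and not yet induced, and day 2 cells had been kept with 170 nM insulin, 1 μM dexamethasone and 0.5 mM isobutylmethylxanthine in serum. Both groups carried FHL2-GFP, so the construct is common to the whole comparison. The labels do not give the promoter of the construct, whether the line is a clone or a pool, or whether the 3 libraries of a day came from separate cultures. The p-values therefore measure only the spread between these libraries. There was no group kept for 2 days without the inducers, so induction, time after confluence and any difference in handling between the days cannot be told apart. Polyadenylated RNA was sequenced with a stranded kit, and levels below are CPM, counts scaled to a common library total, after TMM scaling.

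In this cell line the inducers act in sequence. Dexamethasone engages the glucocorticoid receptor, isobutylmethylxanthine blocks phosphodiesterases and raises cAMP, and insulin acts through the insulin and IGF receptors. The early transcription factors C/EBPβ and C/EBPδ appear first, the cells re-enter the cell cycle (clonal expansion), and C/EBPα and PPARγ then switch on the genes of lipid storage. FHL2 is a LIM-domain cofactor that binds several transcription factors. NFAT5, which the series title pairs with FHL2, is a transcription factor that cells use to adapt to hypertonic surroundings.

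Of 13708 genes tested with edgeR's quasi-likelihood test, 7698 were called at an adjusted p under 0.05 (56.2%), 3765 of them higher at day 2 (27.5%) and 3933 lower (28.7%). At least 2-fold differences made up 4619 of these calls, 1802 higher and 2817 lower. The 6 libraries held 15341579 to 21872139 counts. Induced libraries detected fewer genes, 13657 to 15752 against 17977 to 18734, and after thinning every library to the smallest total the ranges were 13657 to 15669 and 17788 to 18486. The day 2 libraries also varied more, with a biological coefficient of variation of 0.447 against 0.1099 at day 0. The share of counts in mitochondrially encoded genes was 4.20 to 4.48% before induction and 2.60 to 2.95% after it. A gene can be lower in such bulk data because fewer cells express it or because each cell holds less of its RNA, and these cannot be told apart.

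The day change followed the GC content of the transcripts. Across 13688 genes of known GC content, Spearman's rho between GC content and the log2 fold change was 0.618, a description across genes that share the same 6 libraries. It was 0.572, 0.600 and 0.602 for the 3 day 2 libraries taken singly against the day 0 mean. In the lowest of 5 equal GC classes (27.5 to 44.2% GC) the median log2 fold change was -1.59, and 2.45% of genes were called higher against 68.7% lower. In the highest class (55.6 to 78.3% GC) the median was 0.74, with 56.4% higher and 3.87% lower. A second fit added a smooth offset per library over GC content, after which rho was 0.0134. It called 5154 of 13688 genes (37.7%), 2184 higher (16.0%) and 2970 lower (21.7%). Of all genes, 3640 were called in the same direction in both fits (1611 higher, 2029 lower) and 275 in opposite directions. The offset removes any true difference that runs with GC content as well as a technical one, and which part each has was not tested. Both values are therefore given below, the uncorrected one first, and where no p follows them the adjusted p was under 0.05 in both fits. The 2 fits are of the same 6 libraries and are not independent, and the correction itself moved the median of all genes from -0.06 to -0.14 on the log2 scale. Counts of called list members below stand against the shares of all genes, 27.5% higher and 28.7% lower, and 16.0% and 21.7% after the correction.

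**Figure D1:**
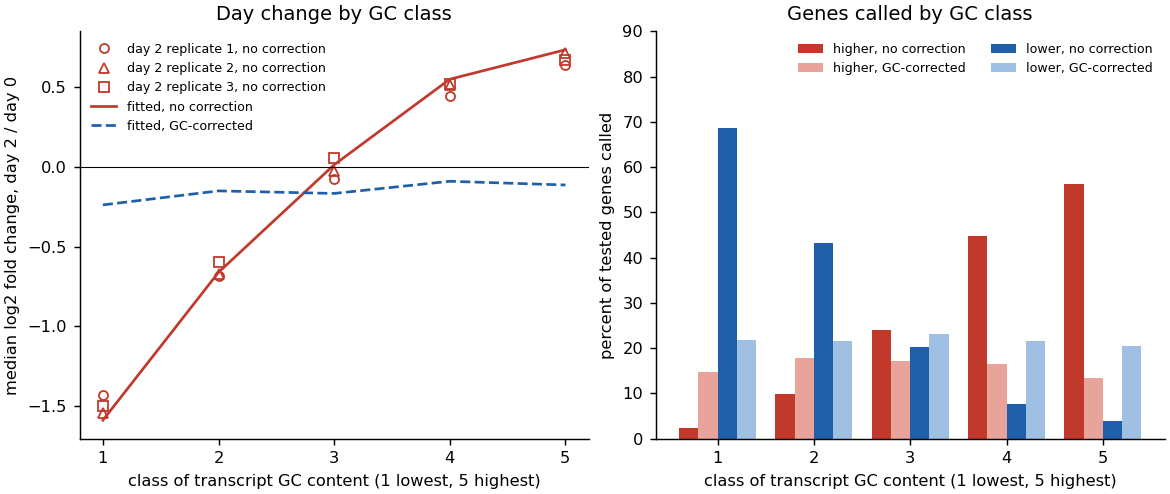
Day change by GC class of the transcript (2737 or 2738 genes a class). Left, median log2 fold change of day 2 over day 0 for each day 2 library against the day 0 mean (symbols) and for the fits without (solid line) and with (dashed line) the GC correction: each of the 3 libraries rises from the lowest class to the highest, and the corrected medians stay between -0.24 and -0.09. Right, percent of genes in each class called higher or lower in both fits.

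The construct's gene was lower at day 2 than at day 0. Fhl2 measured 65.9, 58.4 and 61.9 CPM in the 3 day 0 libraries and 18.9, 10.1 and 23.1 CPM at day 2, so the days did not overlap. Fhl2 had a log2 fold change of -1.83 (SE 0.27, adjusted p = 0.000428), and -2.35 (adjusted p = 0.000299) after the GC correction. The sources used here do not say whether transcript of the construct was counted at this gene. Nfat5 measured 472, 591 and 514 CPM at day 0 and 295, 204 and 121 CPM at day 2, again without overlap. For Nfat5 the log2 fold change was -1.35 (SE 0.27, adjusted p = 0.00257). After the correction it was -0.20 (adjusted p = 0.575), and after an offset for both GC content and transcript length 0.13 (adjusted p = 0.492), so the call for Nfat5 depended on this step. In the corrected fit without the first and second day 2 libraries Nfat5 stood at -0.96. That value rests on the third day 2 library alone, the lowest of the 3 for this gene, so no p is given. Its transcript has a GC content of 42.8%, within the lowest class.

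Of 16 tested genes of the tonicity response and the NFAT family, 6 were higher (37.5%) and 6 lower (37.5%), beside 27.5% and 28.7% of all genes. After the correction 3 were higher and 5 lower, beside 16.0% and 21.7% of all genes. Leaving out any 1 day 0 library left 2 or 3 lower in the corrected fit. Aqp1, a water channel, rose from 273, 288 and 312 to 1211, 1282 and 1195 CPM. Aqp1 differed by 2.08 on the log2 scale (SE 0.08, adjusted p = 1.09e-06), and 1.34 (adjusted p = 6.56e-06) after correction. Akr1b3, the sorbitol-forming aldose reductase and a gene driven by NFAT5 under high salt, was named after its values were seen and measured 31.0, 31.4 and 25.5 CPM and then 43.4, 63.2 and 72.8 CPM. Akr1b3 had a log2 fold change of 1.03 (SE 0.20, adjusted p = 0.00243), with 0.49 (adjusted p = 0.0767) after correction, or adjusted p = 0.00819 there without the first day 2 library. Slc12a2, the sodium, potassium and chloride cotransporter NKCC1, fell from 199, 199 and 184 to 66.9, 59.4 and 47.2 CPM. For Slc12a2 the log2 fold change was -1.75 (SE 0.14, adjusted p = 1.59e-05), and -0.83 (adjusted p = 0.000969) after correction. The calls in this list thus went both ways, as did those of all genes.

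The early adipogenic factors Cebpb and Cebpd rose, as did Klf5 and, from a lower level, Cebpa. Among 23 tested adipogenic transcription factors, 11 were higher and 8 lower (8 and 5 after the correction, the latter 8 without the first day 2 library). The list's median log2 fold change was 0.81 uncorrected and 0.25 corrected. Cebpd, which encodes C/EBPδ, measured 30.3, 22.5 and 24.8 CPM at day 0 and 163, 192 and 284 CPM at day 2. Cebpd differed by 3.04 on the log2 scale (SE 0.22, adjusted p = 1.12e-05), and 2.61 (adjusted p = 4.38e-05) after correction. Cebpb went from 24.3, 21.0 and 20.9 to 78.4, 97.7 and 122 CPM. Cebpb had a log2 fold change of 2.17 (SE 0.18, adjusted p = 2.06e-05), with 1.63 (adjusted p = 5.81e-05) after correction. Both showed every day 2 library above every day 0 library. Klf5, a Krüppel-like factor that works downstream of these C/EBPs on the Pparg promoter, rose from 9.75, 10.7 and 12.4 to 72.9, 62.0 and 47.9 CPM. For Klf5 the log2 fold change was 2.48 (SE 0.20, adjusted p = 1.92e-05), and 2.64 (adjusted p = 3.42e-05) after correction.

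Cebpa, whose product maintains the fat cell state, rose from 7.15, 6.85 and 7.54 to 26.1, 26.2 and 27.0 CPM. Cebpa differed by 1.88 on the log2 scale (SE 0.19, adjusted p = 5.49e-05), with 1.06 (adjusted p = 0.00229) after correction. Pparg, the master regulator of fat cell formation, measured 8.97, 9.23 and 7.68 CPM at day 0 and 11.2, 20.4 and 22.4 CPM at day 2. Pparg had a log2 fold change of 1.06 (SE 0.30, adjusted p = 0.0133), but 0.82 (adjusted p = 0.0502) after correction. The uncorrected call was lost on leaving out any 1 of the 3 day 0 libraries (adjusted p 0.0504 to 0.0701), and the corrected one was gained without the first day 2 library (adjusted p = 0.0034). Rxra, the partner of PPARγ, and Srebf1, a driver of lipid synthesis genes, were chosen after their values were seen. Rxra went from 127, 155 and 136 to 646, 642 and 522 CPM and Srebf1 from 37.3, 38.0 and 36.6 to 142, 147 and 136 CPM. Their log2 fold changes were 2.11 and 1.93, and both calls held after correction (1.26 and 1.04).

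Nr3c1, the glucocorticoid receptor that dexamethasone binds, was among the factors that fell. It measured 122, 114 and 105 CPM at day 0 and 26.9, 16.9 and 9.34 CPM at day 2. For Nr3c1 the log2 fold change was -2.68 (SE 0.32, adjusted p = 0.000134), with -1.43 (adjusted p = 0.00472) after correction. Egr2, an early factor induced within hours of the cocktail, measured 12.03, 13.9 and 12.6 CPM and then 4.54, 3.62 and 4.14 CPM, a log2 fold change of -1.64 (-2.04 corrected).

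**Figure D2:**
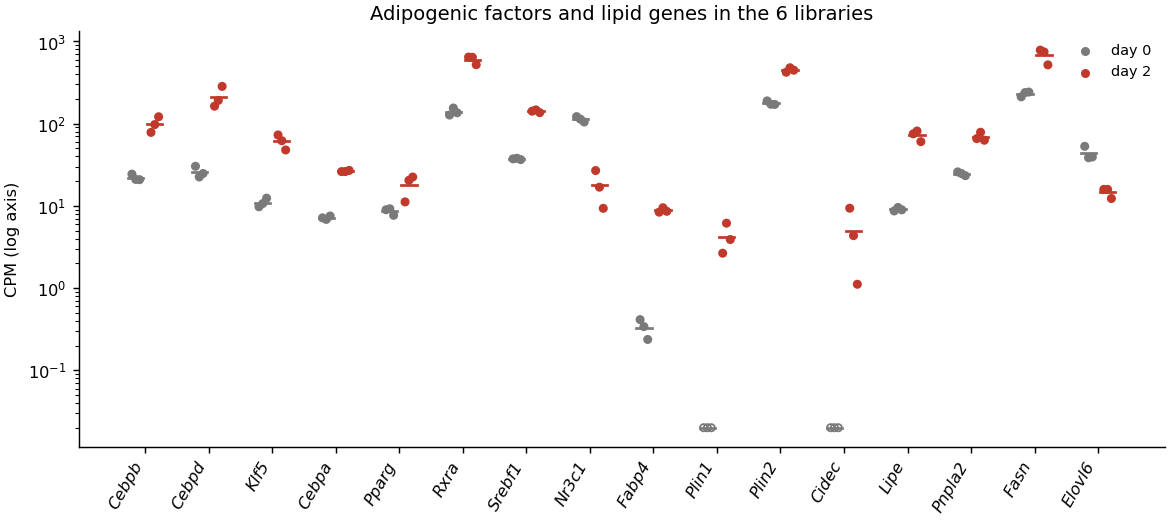
Level of 16 adipogenic factors and lipid genes in CPM on a log axis, with day 0 in grey and day 2 in red. Each point is 1 library, short bars are means over 3 libraries, and open points at the foot are libraries without a count. The 3 day 2 values of Cebpb, Cebpd, Klf5, Cebpa, Fabp4 and Lipe lie above all 3 of day 0, while those of Nr3c1 and Elovl6 lie below.

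Genes that restrain adipogenesis or mark the preadipocyte moved in both directions. Of 20 tested, 4 were higher and 8 lower, and 4 and 9 after correction (2 higher without the first day 0 library). Dlk1 (Pref-1), the preadipocyte marker that is lost later in differentiation, was very abundant and hardly differed, at 6874, 6668 and 6613 CPM and 6373, 7036 and 6764 CPM. Dlk1 differed by 0.00 on the log2 scale (SE 0.06, adjusted p = 0.988). After correction the value was -0.64 (adjusted p = 9.34e-05), so the direction of Dlk1 rests on that step. Klf7, a Krüppel-like factor that inhibits fat cell formation, fell from 35.2, 49.7 and 40.0 to 14.6, 10.2 and 6.25 CPM. Klf7 had a log2 fold change of -2.01 (SE 0.30, adjusted p = 0.00051), with -1.31 (adjusted p = 0.0078) after correction. Ly6a, which encodes the stem cell antigen Sca-1, rose from 41.1, 44.3 and 43.3 to 195, 229 and 191 CPM. For Ly6a the log2 fold change was 2.26 (SE 0.11, adjusted p = 2.56e-06), and 2.39 (adjusted p = 2.64e-06) after correction.

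The largest rises included secreted proteins and hormone targets. Retnla, a resistin-like secreted protein, had no count in any day 0 library and measured 72.5, 80.2 and 57.8 CPM at day 2. Against a floor of 3 counts over the 3 day 0 libraries this was at least 1541-fold higher, with an adjusted p of 3.06e-06. Hp, the haemoglobin-binding acute-phase protein haptoglobin, also had no count at day 0, measured 23.1, 48.9 and 43.5 CPM at day 2 and was at least 846-fold higher (adjusted p = 1.8e-05). Lcn2, lipocalin 2, an iron siderophore carrier, measured 0.703, 0.728 and 1.04 CPM and then 168, 157 and 170.0 CPM. Lcn2 differed by 7.64 on the log2 scale (SE 0.18, adjusted p = 9.81e-08), with 6.97 (adjusted p = 2.53e-07) after correction. The 3 day 2 values of Lcn2 lay close together, far above all 3 of day 0.

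Prg4, lubricin, rose from 0.413, 1.02 and 0.332 to 78.9, 75.8 and 54.7 CPM, a log2 fold change of 6.89 (7.07 corrected). Fam107a, an actin-binding protein known as a glucocorticoid target, rose from 0.827, 0.826 and 1.33 to 115, 98.7 and 107 CPM, a log2 fold change of 6.75 (6.61 corrected). Zbtb16, Cyp2f2, Ear2 and Ear10 were also among the 10 largest rises. The Ear genes are eosinophil-associated ribonucleases with near-identical copies, so how counts were divided among them is uncertain. Ear2 reached 45.6, 52.8 and 54.7 CPM from at most 0.0971 at day 0.

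**Figure D3:**
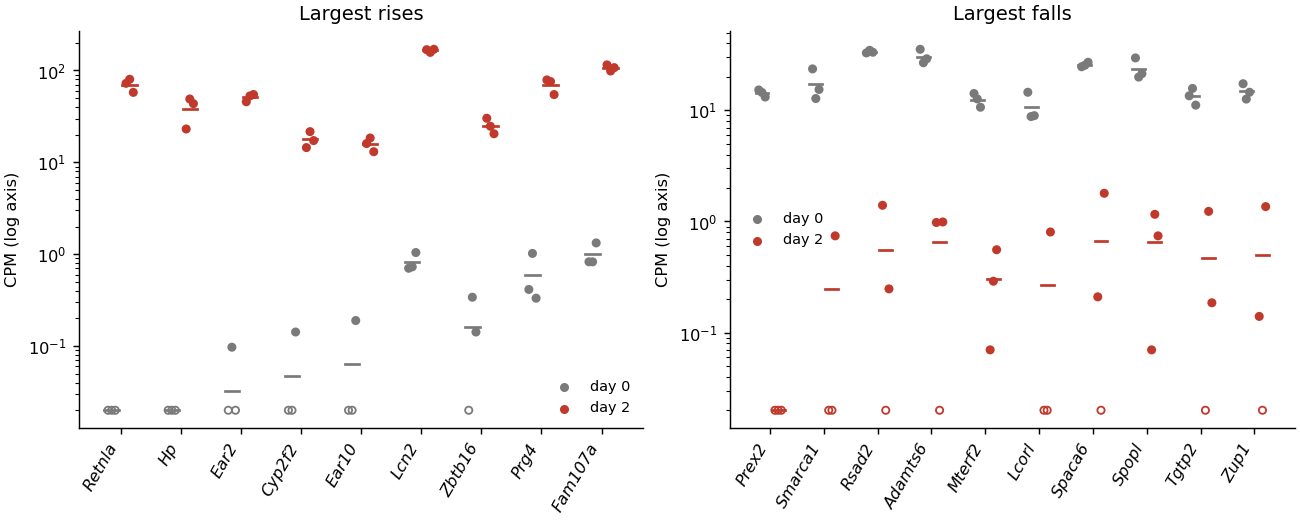
Genes of the 10 largest rises (left, 9 shown) and the 10 largest falls (right) among genes called in the same direction in both fits, in CPM on a log axis. Points are single libraries, bars are group means, and open points at the foot are libraries without a count. The days are separated for each gene shown, which the choice of these genes required. On the log axis most genes that fell have widely spread day 2 points, which lie at or near the foot. In CPM their day 2 standard deviations were at most 0.98, against at least 2.69 for the rises shown.

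Adipokines and acute-phase proteins rose as a group, in that 12 of 17 tested members were higher and 1 lower, and 12 and 0 after correction. The list's median log2 fold change was 3.92, and 3.19 corrected, beside -0.06 and -0.14 for all genes. C3, a complement component from which fat cells make acylation-stimulating protein, rose from 140.3, 139.5 and 160.3 to 2567, 2304 and 1804 CPM, the most abundant member at day 2. C3 had a log2 fold change of 3.92 (SE 0.14, adjusted p = 7.62e-07), with 3.31 (adjusted p = 2.33e-06) after correction. Agt, the precursor of angiotensin, rose from 5.70, 5.63 and 10.7 to 116, 122 and 117 CPM, a log2 fold change of 4.01 (3.19 corrected). Serpina3n, a secreted protease inhibitor, rose from 0.744, 1.21 and 1.09 to 63.3, 74.2 and 66.0 CPM, a log2 fold change of 6.06 (5.60 corrected). Adipoq, which encodes adiponectin, had too few counts to be tested, with counts in 1 day 2 library alone (2.46 CPM). C3, Agt and Serpina3n were named after their values were seen.

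Glucocorticoid targets showed the highest share of rises of the lists with at least 10 tested members. Of 19 tested, 17 were higher and 1 lower, and 16 and 0 after correction (2 lower without the first day 2 library), with a median log2 fold change of 2.64 (1.97 corrected). Fkbp5, the receptor's co-chaperone and a standard reporter of its activity, measured 18.1, 17.1 and 17.0 CPM at day 0 and 285, 319 and 301 CPM at day 2. For Fkbp5 the log2 fold change was 4.11 (SE 0.10, adjusted p = 1.26e-07), with 3.69 (adjusted p = 3.01e-07) after correction. Zbtb16, the zinc finger repressor PLZF, rose from 0, 0.340 and 0.142 to 30.2, 24.7 and 20.5 CPM. Zbtb16 differed by 7.29 on the log2 scale (SE 0.62, adjusted p = 2.34e-05), and 6.66 (adjusted p = 8.48e-05) after correction. Tsc22d3 (GILZ) and Glul (glutamine synthetase), named after their values were seen, had log2 fold changes of 3.38 and 3.55 (3.53 and 3.48 corrected). These rises stood beside the fall of the receptor gene Nr3c1 itself.

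The cAMP response list was mixed. Of 16 tested members, 6 were higher (37.5%) and 5 lower (31.25%), beside 27.5% and 28.7% of all genes. After correction 6 were higher and 3 lower, beside 16.0% and 21.7% of all genes. Without the first day 2 library the numbers lower became 8 and, corrected, 7. Rgs2, a regulator of G protein signalling, rose from 38.8, 30.5 and 28.5 to 208, 213 and 264 CPM. Rgs2 had a log2 fold change of 2.81 (SE 0.16, adjusted p = 3.93e-06), with 3.84 (adjusted p = 1.59e-06) after correction. Pde4b, a phosphodiesterase that degrades cAMP, rose from 1.65, 3.93 and 4.45 to 21.1, 25.6 and 28.3 CPM, a log2 fold change of 2.90 (3.48 corrected). Dio2, the enzyme that activates thyroid hormone, went from 0.165, 0.0971 and 0.806 to 17.6, 4.78 and 10.0 CPM, a log2 fold change of 4.91 (5.95 corrected). In insulin and IGF signalling, 11 of 21 tested members were higher and 5 lower, and 5 and 3 after correction. Leaving out the first day 0 library gave 7 and 3 higher, and leaving out the first day 2 library gave 5 lower after correction. Igfbp4, a secreted IGF-binding protein, rose from 184, 191 and 190.3 to 1165, 1273 and 1304 CPM, with log2 fold changes of 2.73 and 1.97 in the respective fits.

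Most genes of the lipid droplet, lipid uptake and lipolysis rose. Of 16 tested droplet, uptake and lipolysis genes, 12 were higher and 1 lower, and 11 and 1 after correction, with a median log2 fold change of 1.41 (1.18 corrected). Lipe, hormone-sensitive lipase, rose from 8.68, 9.57 and 8.96 to 75.3, 81.4 and 60.5 CPM. For Lipe the log2 fold change was 3.00 (SE 0.17, adjusted p = 4.35e-06), with 2.20 (adjusted p = 2.36e-05) after correction. Pnpla2, adipose triglyceride lipase, rose from 25.9, 24.8 and 23.3 to 65.8, 78.7 and 62.9 CPM, a log2 fold change of 1.49 (0.63 corrected). Fabp4, the fat cell fatty acid binding protein, rose from 0.413, 0.340 and 0.237 to 8.39, 9.49 and 8.59 CPM. Fabp4 differed by 4.71 on the log2 scale (SE 0.47, adjusted p = 5.48e-05), and 6.25 (adjusted p = 3.77e-05) after correction. Plin1, the perilipin of mature fat cells, had no count at day 0 and rose to 2.66, 6.16 and 3.90 CPM, which is at least 93.1-fold (adjusted p = 0.000609). Cidec, a droplet fusion protein named after its values were seen, had no count at day 0 and 9.37, 4.35 and 1.11 CPM at day 2, so its libraries differed widely within the group.

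Of 21 tested genes of fatty acid and triglyceride synthesis, 2 were higher (9.52%) and 5 lower (23.8%) in both fits. The shares of all genes were 27.5% and 28.7%, and 16.0% and 21.7% after correction. With the offset for both GC content and length 4 were higher and 3 lower. Without the first day 2 library 7 were higher in the uncorrected fit, and without the third day 0 library 3 were lower after correction. Fasn, fatty acid synthase, rose from 212, 239 and 243 to 785, 746 and 519.8 CPM. Fasn had a log2 fold change of 1.56 (SE 0.15, adjusted p = 4.65e-05), with 0.68 (adjusted p = 0.00579) after correction. Elovl6, a fatty acid elongase, fell from 53.1, 38.5 and 39.4 to 15.9, 15.9 and 12.3 CPM. For Elovl6 the log2 fold change was -1.57 (SE 0.20, adjusted p = 0.000191), with -0.61 (adjusted p = 0.0286) after correction, a call lost there without any 1 of the day 0 libraries (adjusted p 0.0543 to 0.127).

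The cholesterol synthesis and uptake genes that changed were mostly lower, with 6 of 24 tested members higher and 12 lower, and 0 and 11 after correction. Hmgcs1, the enzyme before the rate-limiting step, fell from 181, 183 and 173 to 22.2, 39.5 and 38.4 CPM. Hmgcs1 differed by -2.42 on the log2 scale (SE 0.20, adjusted p = 2.17e-05), and -1.30 (adjusted p = 0.00185) after correction. Insig1, the sterol sensor that retains SREBP in the endoplasmic reticulum, fell from 66.2, 65.0 and 61.7 to 17.9, 10.2 and 18.0 CPM, a log2 fold change of -2.06 (-1.96 corrected). Sc5d, a late desaturase of the pathway, fell from 69.1, 74.3 and 65.6 to 5.31, 14.8 and 14.0 CPM, a log2 fold change of -2.62 (-1.44 corrected).

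Most interferon-stimulated genes fell. These antiviral effectors and sensors are switched on by a transcription factor complex that interferon activates and that binds interferon response elements near the start site. Of 35 tested members, 31 were lower and 0 higher, beside 28.7% of all genes called lower, and the median log2 fold change was -1.81. After correction 32 were lower and 1 higher, with a median of -2.05, and the number lower ranged from 28 to 33 over both fits when 1 library was left out. In 33 of the 35, every day 2 library was below every day 0 library, as in 36.1% of all tested genes. The summed level of the list was 4169 to 4621 CPM at day 0 and 1578 to 1593 CPM at day 2.

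Rsad2, the antiviral enzyme viperin, measured 32.9, 34.7 and 33.3 CPM at day 0 and 1.40, 0 and 0.247 CPM at day 2. Rsad2 had a log2 fold change of -5.93 (SE 0.70, adjusted p = 0.000124), with -4.97 (adjusted p = 0.000648) after correction. Ifit3b, which binds foreign RNA with its relatives, fell from 89.4, 92.6 and 72.3 to 1.68, 2.39 and 4.95 CPM. For Ifit3b the log2 fold change was -4.80 (SE 0.35, adjusted p = 1.09e-05), and -4.19 (adjusted p = 4.33e-05) after correction. Ifit3 and Ifit3b are near-identical neighbours, so the division of counts between them is uncertain. Ifit3 gave 249, 264 and 241 CPM and 14.5, 11.4 and 9.96 CPM. Ifih1, the RNA sensor MDA5, fell from 19.6, 17.6 and 14.2 to 0.909, 0 and 1.24 CPM, a log2 fold change of -4.54 (-3.37 corrected). Isg15, a ubiquitin-like modifier, fell from 160.4, 145 and 134 to 14.3, 29.6 and 28.4 CPM, a log2 fold change of -2.60 (-3.17 corrected). Ifi44 was the exception after correction, with -1.01 before and 0.63 after, at a GC content of 39.4%. Ifit3, Isg15 and Ifi44 were named after their values were seen.

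The promoters of 4 of these genes are shown because a motif of the interferon response can be read in them. Sequences are from RefSeq on build GRCm38.p6, 250 bases before to 50 after the start, on the strand of the gene, and capitals mark matches to GAAANNGAAA on either strand (TTTCNNTTTC where the match is on the opposite strand).
Rsad2 (chr12:26456403-26456702, - strand): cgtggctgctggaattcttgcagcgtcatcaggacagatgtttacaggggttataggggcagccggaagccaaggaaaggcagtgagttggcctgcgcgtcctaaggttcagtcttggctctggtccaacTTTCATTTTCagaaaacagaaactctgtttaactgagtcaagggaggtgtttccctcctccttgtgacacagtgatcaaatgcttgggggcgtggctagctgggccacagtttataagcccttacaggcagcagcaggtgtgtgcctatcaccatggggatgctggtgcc
Ifit3 (chr19:34583279-34583578, + strand): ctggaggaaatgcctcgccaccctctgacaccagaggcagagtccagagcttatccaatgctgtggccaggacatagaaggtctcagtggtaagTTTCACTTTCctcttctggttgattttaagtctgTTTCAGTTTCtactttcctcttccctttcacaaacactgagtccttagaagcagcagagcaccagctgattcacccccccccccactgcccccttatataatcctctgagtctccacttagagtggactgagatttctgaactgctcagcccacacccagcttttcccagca
Ifit3b (chr19:34607707-34608006, + strand): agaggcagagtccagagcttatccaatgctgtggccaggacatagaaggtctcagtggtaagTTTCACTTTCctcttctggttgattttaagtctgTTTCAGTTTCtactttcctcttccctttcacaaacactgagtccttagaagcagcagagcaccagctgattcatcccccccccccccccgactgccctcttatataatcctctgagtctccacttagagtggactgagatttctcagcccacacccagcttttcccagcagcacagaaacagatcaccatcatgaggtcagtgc
Isg15 (chr4:156200769-156201068, - strand): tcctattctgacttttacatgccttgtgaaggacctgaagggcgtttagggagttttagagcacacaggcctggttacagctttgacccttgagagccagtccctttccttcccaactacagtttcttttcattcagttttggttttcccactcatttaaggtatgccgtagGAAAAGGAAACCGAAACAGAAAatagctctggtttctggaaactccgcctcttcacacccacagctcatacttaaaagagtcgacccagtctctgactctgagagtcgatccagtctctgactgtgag
The Rsad2 window holds 1 match, those of Ifit3 and Ifit3b hold 2 each in the same surrounding sequence, and the Isg15 window holds 3 overlapping ones. Of the 26 interferon-stimulated genes with a promoter in the table, 16 held a match (61.5%), and among the 22 of them called lower 15 did (68.2%). Of all 27025 promoters of the same length, 943 held one (3.49%). A match is a description of the letters, and no binding was measured here.

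The same reading of other promoters gave fewer matches. The palindrome TGACGTCA of the cAMP response element stood in 2 of 13 cAMP response promoters (15.4%) and in 1.88% of all. The glucocorticoid receptor motif GNACANNNTGTNC stood in 1 of 16 glucocorticoid target promoters (6.25%) and in 0.4625% of all. The C/EBP motif TTGCNCAA stood in 3 of 17 adipokine and acute-phase promoters (17.65%) and in 2.92% of all. Lcn2, with the third largest log2 fold change in its list, is one of these 3. The window of Retnla, with the largest log2 fold change in that list, held 0 matches to this motif. That of Fkbp5 held 0 matches to the glucocorticoid receptor motif. The Lcn2 window is shown with its match in capitals.
Lcn2 (chr2:32387690-32387989, - strand): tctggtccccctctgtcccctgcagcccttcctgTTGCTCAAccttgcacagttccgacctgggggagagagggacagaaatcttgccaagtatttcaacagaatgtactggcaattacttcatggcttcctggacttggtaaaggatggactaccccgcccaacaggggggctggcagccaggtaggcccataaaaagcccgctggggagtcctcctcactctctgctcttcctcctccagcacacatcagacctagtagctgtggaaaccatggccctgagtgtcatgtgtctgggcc

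**Figure D4:**
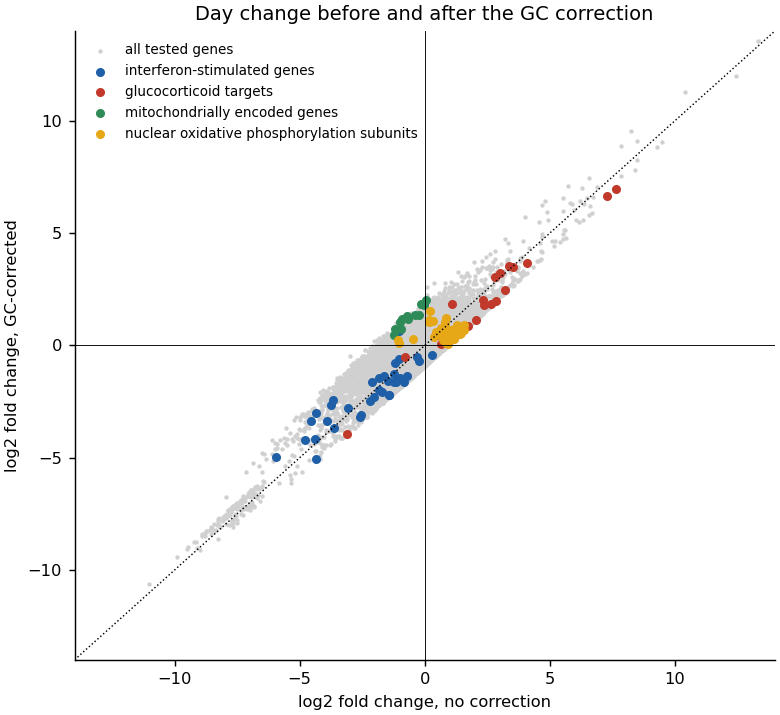
Log2 fold change of day 2 over day 0 for every tested gene without (horizontal) and with (vertical) the GC correction, with equality dotted. Interferon-stimulated genes (blue) lie below 0 on both axes in all but 2 cases, Ifi44 among them, glucocorticoid targets (red) lie mostly above 0 on both, and mitochondrially encoded genes (green) cross from about 0 or below to above.

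The counts for MHC class I presentation genes depended on the correction. Of 15 tested, 3 were higher (20%) and 4 lower (26.7%), near the shares of all genes (27.5% and 28.7%), and 7 were lower without the third day 2 library. After the GC correction 2 were higher and 8 lower, and with the offset for both GC content and length 2 and 11. Nlrc5, the transactivator of MHC class I genes, fell from 28.6, 36.7 and 36.6 to 12.1, 13.0 and 6.43 CPM. Nlrc5 differed by -1.69 on the log2 scale (SE 0.28, adjusted p = 0.000865), with -2.23 (adjusted p = 0.000468) after correction. Calr, the endoplasmic reticulum chaperone calreticulin, rose from 1574, 1671 and 1746 to 3106, 3301 and 3835 CPM, a log2 fold change of 1.04 (0.83 corrected). Among 21 tested chemokines, cytokines and NF-kB regulators, 9 were higher and 5 lower, and 8 and 5 after correction. Without the third day 0 library 5 were higher in either fit and 3 lower after correction, and without the first or second 5 and 3 after correction. Il1rn, the interleukin 1 receptor antagonist, rose from 0.827, 0.777 and 0.995 to 55.1, 74.8 and 75.3 CPM. Il1rn had a log2 fold change of 6.29 (SE 0.23, adjusted p = 7.62e-07), and 7.01 (adjusted p = 8.36e-07) after correction. Cx3cl1, the chemokine fractalkine, rose from 105, 102 and 109 to 528, 552 and 459.6 CPM, a log2 fold change of 2.29 (1.43 corrected).

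Collagen genes changed in both directions. Of 21 tested collagens, 6 were higher (28.6%) and 8 lower (38.1%), beside 27.5% and 28.7% of all genes. After correction 5 were higher and 13 lower (3 higher without the first day 0 library), and with the offset for both GC content and length 5 and 9. Col1a1, the main fibrillar collagen chain, fell from 4965, 5278 and 5146 to 2413, 2238 and 2096 CPM. For Col1a1 the log2 fold change was -1.19 (SE 0.07, adjusted p = 6.33e-06), with -2.08 (adjusted p = 9.98e-07) after correction. Col8a1, a short-chain collagen, fell from 56.7, 59.4 and 56.3 to 12.7, 3.70 and 6.12 CPM, a log2 fold change of -2.94 (-2.55 corrected). The basement membrane chain Col4a1 and the beaded filament chain Col6a1, named after their values were seen, rose. Col4a1 went from 951, 1031 and 1013 to 2876, 2553 and 2295 CPM and Col6a1 from 2498, 2725 and 2719 to 7356, 6647 and 5685 CPM. Their corrected log2 fold changes, 0.49 and 0.47, were smaller than the uncorrected 1.37 and 1.31.

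Among 32 elastic fibre, matricellular and proteoglycan genes, 7 were higher and 17 lower, and 8 and 14 after correction. Thbs1, thrombospondin 1, fell from 229, 231 and 246 to 31.6, 19.7 and 30.7 CPM. Thbs1 differed by -3.10 on the log2 scale (SE 0.18, adjusted p = 4.51e-06), with -3.28 (adjusted p = 6.23e-06) after correction. Ccn4, a matricellular target of Wnt signalling, fell from 78.3, 81.4 and 78.1 to 21.2, 9.06 and 10.6 CPM, a log2 fold change of -2.54 (-2.03 corrected). Vcan, the large proteoglycan versican, named after its values were seen, went the other way, from 439.7, 467 and 432 to 3029.9, 2687 and 1719 CPM. Vcan had a log2 fold change of 2.47 (SE 0.19, adjusted p = 1.34e-05), and 3.47 (adjusted p = 5.7e-06) after correction. Of 29 crosslinking enzymes, proteases and inhibitors, 10 were higher (34.5%) and 11 lower (37.9%), beside 27.5% and 28.7% of all genes. After correction 6 were higher and 11 lower. Timp3, a matrix-bound metalloprotease inhibitor, fell from 446, 486 and 497 to 103, 108 and 70.4 CPM, a log2 fold change of -2.35 (-1.97 corrected).

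The contractile and mechanosensitive genes that changed were more often lower, for the actin list mainly after the correction. Of 26 tested actin cytoskeleton and SRF target genes, 8 were higher (30.8%) and 12 lower (46.2%), beside 27.5% and 28.7% of all genes. After correction 2 were higher and 15 lower, beside 16.0% and 21.7% of all genes. The list's median log2 fold change was -0.10, and -0.69 corrected. Its summed level was 15006.5 to 15898 CPM at day 0 and 17333 to 18103 CPM at day 2. Tagln, the smooth muscle protein transgelin, fell from 59.9, 47.7 and 59.3 to 8.60, 8.62 and 6.37 CPM. For Tagln the log2 fold change was -2.82 (SE 0.20, adjusted p = 9.18e-06), with -3.35 (adjusted p = 1.21e-05) after correction. Acta2 and Tpm1, smooth muscle actin and tropomyosin, were named after their values were seen. Acta2 fell from 799, 675 and 822 to 159, 226 and 239.7 CPM and Tpm1 from 1136, 1037 and 1139 to 222, 219.9 and 257 CPM, with corrected log2 fold changes of -2.02 and -2.40. Of 21 YAP and TEAD targets and pathway genes, 4 were higher and 11 lower, and 1 and 12 after correction. F3, tissue factor, fell from 348, 339 and 342 to 97.3, 94.7 and 103 CPM. F3 differed by -1.80 on the log2 scale (SE 0.08, adjusted p = 2.06e-06), and -1.32 (adjusted p = 1.18e-05) after correction.

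Of 28 tested TGF-beta and BMP genes, 10 were higher (35.7%) and 11 lower (39.3%), and 4 and 11 after correction. The shares of all genes were 27.5% and 28.7%, and 16.0% and 21.7% after correction. Inhba, the activin A subunit, fell from 58.2, 45.6 and 36.4 to 4.26, 6.02 and 5.26 CPM. Inhba had a log2 fold change of -3.17 (SE 0.24, adjusted p = 1.42e-05), with -1.76 (adjusted p = 0.0005) after correction. Of 21 Wnt genes, 6 were higher and 4 lower, and 5 and 8 after correction (3 higher without the first day 2 library or any 1 of the day 0 libraries). Wnt4, a ligand, rose from 2.27, 2.28 and 2.37 to 17.8, 11.96 and 20.2 CPM, a log2 fold change of 2.85 (2.05 corrected). Apc, a scaffold of the beta-catenin destruction complex, fell from 73.3, 73.8 and 68.7 to 11.7, 12.4 and 8.90 CPM, a log2 fold change of -2.71 (-1.82 corrected).

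The cell cycle lists differed in how far the correction moved them. Of 41 tested S phase and replication genes, 21 were higher and 6 lower, and 13 and 3 after correction, with medians of 0.48 and 0.18. Mcm5, a subunit of the replicative helicase, rose from 55.0, 54.6 and 58.5 to 167, 233 and 196 CPM. For Mcm5 the log2 fold change was 1.82 (SE 0.13, adjusted p = 1.16e-05), with 1.36 (adjusted p = 7.7e-05) after correction. Pola1, the catalytic subunit of the priming polymerase, fell from 26.9, 24.5 and 21.1 to 6.36, 3.26 and 4.02 CPM, a log2 fold change of -2.41 (-1.04 corrected). The corrected call for Pola1 was lost without the first or the second day 0 library (adjusted p 0.0593 to 0.0598). Leaving out any 1 day 0 library left 3 S phase genes lower in the uncorrected fit and 1 or 2 in the corrected one.

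Of 30 tested mitosis and spindle genes, 12 were higher and 12 lower before correction, and 12 and 2 after it, with medians of -0.05 and 0.44. Without the third day 0 library 7 were higher in either fit, and without the first 7 were lower in the uncorrected fit. Aurka, the centrosomal kinase Aurora A, rose from 12.9, 15.01 and 13.6 to 29.8, 50.5 and 41.1 CPM. Aurka differed by 1.55 on the log2 scale (SE 0.22, adjusted p = 0.000359), with 1.14 (adjusted p = 0.00281) after correction. Bub1, a spindle checkpoint kinase with a GC content of 41.0%, fell from 15.2, 11.8 and 9.53 to 1.54, 1.88 and 2.78 CPM. Bub1 had a log2 fold change of -2.55 (SE 0.38, adjusted p = 0.000458), with -1.09 (adjusted p = 0.0416) after correction. This corrected call was lost without any 1 of the day 0 libraries or the second of day 2 (adjusted p 0.0664 to 0.177). Mki67, the proliferation marker, overlapped between the days at 59.6, 42.5 and 42.3 CPM and 34.7, 44.6 and 22.2 CPM. For Mki67 the log2 fold change was -0.51 (SE 0.26, adjusted p = 0.123), and -0.08 (adjusted p = 0.847) after correction, so it passed in neither fit. The uncorrected difference passed with limma-voom (-0.58, adjusted p = 0.0499) and without the second day 2 library (adjusted p = 0.0335). Without the first and second day 2 libraries the log2 fold change of Mki67 was -1.14 and, corrected, -0.75. These values rest on the third day 2 library alone, the lowest of that day, so no p is given.

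Of 25 tested G1 cyclins, CDK inhibitors and E2F genes, 9 were higher (36%) and 8 lower (32%), beside 27.5% and 28.7% of all genes. After correction 1 was higher and 6 lower (3 higher without the first day 2 library), beside 16.0% and 21.7% of all genes. The D-type cyclins moved apart. Ccnd2 fell from 667, 773 and 773 to 241, 248 and 199.5 CPM, a log2 fold change of -1.68 (-1.37 corrected). Ccnd3 rose from 125, 128 and 136 to 372, 429 and 351 CPM, a log2 fold change of 1.57 (0.68 corrected). Cdk6, a kinase these cyclins bind, fell from 71.4, 89.8 and 87.0 to 18.1, 24.0 and 22.4 CPM. Cdk6 differed by -1.94 on the log2 scale (SE 0.16, adjusted p = 2.13e-05), with -1.21 (adjusted p = 0.000662) after correction.

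The genes of energy metabolism that changed were mostly higher. Of 24 tested glycolysis and hypoxia genes, 16 were higher and 1 lower, and 14 and 1 after correction, with medians of 1.22 and 0.75. Tpi1, triosephosphate isomerase, rose from 326, 331 and 318 to 1294, 1706 and 1520.4 CPM. Tpi1 had a log2 fold change of 2.21 (SE 0.11, adjusted p = 2.56e-06), with 1.58 (adjusted p = 1.21e-05) after correction. Pfkl, the liver-type phosphofructokinase, rose from 90.2, 102 and 95.3 to 348, 520.0 and 449.8 CPM, a log2 fold change of 2.20 (1.34 corrected). Of 36 citrate cycle and fatty acid oxidation genes, 21 were higher and 6 lower, and 18 and 2 after correction (6 lower with the offset for both GC content and length). Pcx, pyruvate carboxylase, which feeds citrate for lipid synthesis, rose from 28.3, 33.4 and 33.4 to 352, 303 and 233 CPM. For Pcx the log2 fold change was 3.22 (SE 0.17, adjusted p = 2.97e-06), and 2.35 (adjusted p = 1.76e-05) after correction.

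Of 37 tested nuclear subunits of oxidative phosphorylation, 28 were higher and 3 lower, and 25 and 0 after correction, with medians of 0.91 and 0.56. With the offset for both GC content and length 14 were higher and 0 lower, and without the second day 0 library 16 were higher after the GC correction. Cox4i1, a subunit of cytochrome c oxidase, rose from 261, 233 and 247 to 632, 755 and 812 CPM. Cox4i1 differed by 1.57 on the log2 scale (SE 0.11, adjusted p = 9.37e-06), with 0.69 (adjusted p = 0.00131) after correction and 0.30 (adjusted p = 0.00316) with the offset for both. Uqcrc1, a core subunit of complex III, rose from 134, 129.6 and 139.9 to 324, 416 and 370.2 CPM, a log2 fold change of 1.46 (0.59 corrected).

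The 12 tested mitochondrially encoded genes turned with the correction. Before it 0 were higher and 6 lower, with a median of -0.68, and after it 10 were higher and 0 lower, with a median of 1.25. mt-Cytb, cytochrome b, fell from 9166, 8379 and 8609 to 4562, 4508 and 4401 CPM. mt-Cytb had a log2 fold change of -0.96 (SE 0.06, adjusted p = 8.14e-06), against 0.72 (adjusted p = 0.000179) after correction. mt-Co1, a catalytic subunit of cytochrome c oxidase named after its values were seen, measured 11770.1, 11533 and 12110.3 CPM and 10501, 10348 and 9234 CPM, with -0.24 before and 1.35 after. These genes are transcribed from their own genome and have a GC content of 39.1% (mt-Cytb) and 39.9% (mt-Co1), both in the lowest GC class, and copies of mitochondrial sequence in the nuclear genome make their counts uncertain. No direction can therefore be given for them.

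Antioxidant, metallothionein and NRF2 target genes were mostly higher, 19 of 26 against 3 lower, and 16 against 4 after correction (2 lower without the first or the second day 0 library). Mt1, a metal-binding metallothionein that glucocorticoids induce, rose from 221, 193 and 192 to 927, 1097 and 1112 CPM. For Mt1 the log2 fold change was 2.37 (SE 0.11, adjusted p = 1.69e-06), with 1.80 (adjusted p = 8.08e-06) after correction. Mt2 rose from 26.9, 22.1 and 25.4 to 144, 157 and 164 CPM, a log2 fold change of 2.64 (1.85 corrected). Fth1, the ferritin heavy chain, named after its values were seen, reached 19942, 22610.4 and 26079 CPM from 3613, 3232 and 3562 CPM. Fth1 differed by 2.72 on the log2 scale (SE 0.10, adjusted p = 8.92e-07), and 2.08 (adjusted p = 3.15e-06) after correction.

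The core clock list held 5 genes higher and 8 lower of 19, and 2 and 8 after correction, and 5 lower in the uncorrected fit without the first or the second day 0 library. Nr1d2, the repressor REV-ERBβ, fell from 44.1, 43.1 and 34.8 to 4.54, 1.23 and 3.34 CPM. Nr1d2 had a log2 fold change of -3.74 (SE 0.39, adjusted p = 6.7e-05), with -2.42 (adjusted p = 0.000972) after correction. Nfil3, a repressor that opposes D-box activators, rose from 9.09, 10.2 and 7.58 to 111, 92.5 and 102 CPM. For Nfil3 the log2 fold change was 3.50 (SE 0.16, adjusted p = 2e-06), with 2.79 (adjusted p = 9.34e-06) after correction.

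Chromatin remodellers and histone lysine enzymes were mostly lower, 21 of 35 against 5 higher, and 18 against 3 after correction. The number higher was 0 or 1 in the corrected fit without any 1 of the day 0 libraries, and 7 with the offset for both GC content and length. Setd2, the H3K36 methyltransferase, fell from 131, 119.9 and 114 to 40.9, 37.5 and 29.0 CPM. Setd2 differed by -1.76 on the log2 scale (SE 0.15, adjusted p = 2.23e-05), with -0.86 (adjusted p = 0.00132) after correction. Cryab, the small heat shock protein αB-crystallin, fell from 202, 178 and 180.0 to 50.6, 50.9 and 70.9 CPM. Cryab had a log2 fold change of -1.70 (SE 0.15, adjusted p = 2.73e-05), and -2.41 (adjusted p = 1.51e-05) after correction. Of 26 lysosomal genes, 11 were higher (42.3%) and 7 lower (26.9%), beside 27.5% and 28.7% of all genes. After correction 8 were higher and 10 lower, beside 16.0% and 21.7% of all genes. Ctsb, the protease cathepsin B, rose from 531, 511 and 537 to 1410.0, 1492 and 1499 CPM, a log2 fold change of 1.48 (1.40 corrected). H19, an imprinted noncoding RNA, rose from 26.5, 29.7 and 32.6 to 218, 218 and 252 CPM, with log2 fold changes of 2.96 and 2.16.

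**Figure D5:**
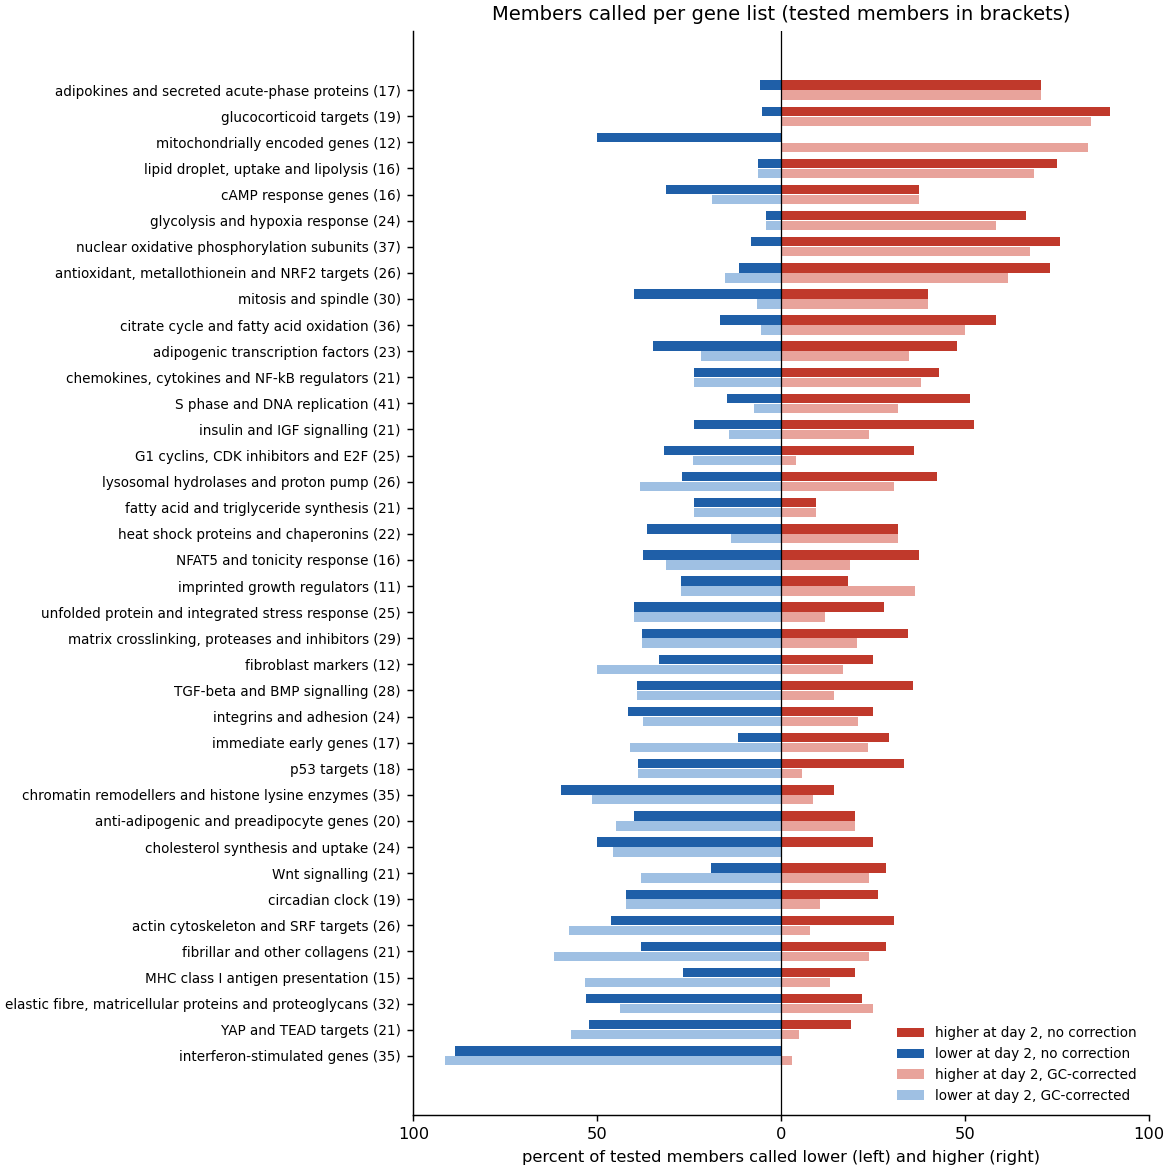
Percent of tested members called higher (right) or lower (left) at day 2 for the gene lists with at least 10 tested members, without (dark) and with (light) the GC correction, ordered by the corrected median. Glucocorticoid targets, adipokines and lipid droplet genes lie to the right in both fits and interferon-stimulated genes to the left in both, whereas mitochondrially encoded genes change sides.

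The largest falls included genes of several kinds. Prex2, an exchange factor for the GTPase Rac, measured 15.2, 14.5 and 13.2 CPM at day 0 and had no count at day 2, at least 211-fold lower against a floor of 3 counts over the 3 day 2 libraries (adjusted p = 2.39e-05). Adamts6, a secreted metalloprotease, fell from 35.4, 26.8 and 29.1 to 0.979, 0 and 0.989 CPM. For Adamts6 the log2 fold change was -5.49 (SE 0.62, adjusted p = 0.000101), with -4.45 (adjusted p = 0.000633) after correction. Smarca1, an ISWI chromatin remodeller, fell from 23.6, 12.8 and 15.4 to 0, 0 and 0.742 CPM, a log2 fold change of -6.00 (-4.35 corrected). Tgtp2, an interferon-inducible GTPase, fell from 13.5, 15.7 and 11.1 to 0, 1.23 and 0.185 CPM, a log2 fold change of -4.84 (-3.79 corrected). The other 6 were Rsad2, Mterf2, Lcorl, Spaca6, Spopl and Zup1. The day 2 level of each of these 10 was at most 1.79 CPM in any library, close to the level that few counts give.

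Markers of cell types were read to check the label. Of 13 fibroblast markers 12 were tested, 3 higher and 4 lower (2 and 6 after correction), and their summed level was 22814 to 23539 CPM at day 0 and 19469 to 20124 CPM at day 2. Apart from bone and cartilage markers, the summed levels of the other lists were low. Muscle markers gave 5.73 to 10.3 CPM at day 0 and 3.56 to 10.5 CPM at day 2, with 8 of 13 at 0 in all 6 libraries, Myod1 and Myog among them. Macrophage and blood markers gave 10.7 to 18.9 and 9.57 to 19.6 CPM, with 8 of 14 at 0, Ptprc, Adgre1 and Itgam among them. Endothelial markers gave 19.2 to 22.3 and 11.1 to 16.1 CPM with 4 of 11 at 0, and epithelial markers at most 1.79 CPM with 7 of 11 at 0. Bone and cartilage markers gave more, 271 to 303 and 227 to 257 CPM. Among them Runx2, the osteoblast factor that fibroblasts also express, fell from 69.8, 80.2 and 79.9 to 32.1, 27.6 and 25.5 CPM. Runx2 made up only part of that sum on either day.

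Whether the day change of the FHL2 line differed from that of the control line was tested as an interaction over all 12 libraries. Among 14435 genes, 1 passed (0.00693%) and 996 had an unadjusted p under 0.05, whereas 73 passed with DESeq2 and 91 with edgeR without a filter on low counts. The gene was Tnc, tenascin C, a matricellular protein of remodelling tissue. Scaled over all 12 libraries, it measured 417, 471 and 457 CPM at day 0 and 206, 186 and 162 CPM at day 2 in the FHL2 line, and 359.9, 341 and 361 CPM and then 375, 408 and 292 CPM in the control line. The log2 difference of the day changes was -1.30 (SE 0.17, adjusted p = 0.0276). The days of the FHL2 line did not overlap, and those of the control line did. Leaving out 1 library gave an adjusted p above 0.05 in 9 of the 12 cases, with values from -1.47 to -1.21. For every other gene named above the interaction did not pass in the filtered edgeR fit, which does not show that both lines changed alike.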

How the data were processed

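Raw counts per Ensembl gene identifier were used as the authors deposited them, in 1 table with a column per library. The submitters' processing notes name HTSeq 0.11.0, HISAT2 2.2.1, limma, R 4.1.0, Trimmomatic 0.39, FastQC 0.11.9 and build GRCm39 (mm39). The sources used here do not state the annotation release or whether counting used strand. Of 55414 identifiers, 52081 matched a symbol.

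The 6 libraries were fitted alone with edgeR 4.0.16 in R 4.3.3: filterByExpr, TMM scaling, quasi-likelihood test, 2-sided, Benjamini-Hochberg over all genes tested, call at an adjusted p under 0.05. The interaction was fitted on all 12 libraries. GC content and length came from GENCODE M21. They were those of the longest protein-coding transcript of each gene, or of its longest transcript where it had no protein-coding one. GENCODE M21 covers 99.9% of tested genes but belongs to an older build, so no coordinates of genes in the files' build are given. The GC offset was a natural spline with 5 degrees of freedom per library, fitted on genes averaging over 5 CPM. Where a group had no count of a gene, folds were taken against 3 counts over that group; such floors cover counting error only. Scripts were tested on simulated data.

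Members and the 44 gene lists were chosen with earlier results of these data known. Genes named by rule were Fhl2, Nfat5 and 11 others fixed by name, the 10 largest rises and falls called in both fits, and up to 3 called members per list with the largest change, averaging at least 5 CPM. Genes outside it are marked in the text, and 1 of the largest rises is not reported here. Alternatives were other scalings, filters, DESeq2 1.42.0, limma-voom (3.58.1), offsets, the replicate number as a block, and libraries left out.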

Additional observations from a re-analysis of the deposited data

Results flagged for a closer look

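The day change of Tnc, tenascin C, differed between the lines by a test of the difference itself. The interaction was -1.30 on the log2 scale (edgeR, SE 0.17, adjusted p = 0.0276). In the FHL2 line Tnc went from 417, 471 and 457 CPM at day 0 to 206, 186 and 162 CPM at day 2, whereas the control line gave 359.9, 341 and 361 CPM and then 375, 408 and 292 CPM. All 3 day 2 libraries of the FHL2 line lay below its 3 day 0 libraries, and those of the control line overlapped. The value was -1.27 with the GC offset. Leaving out 1 library gave an adjusted p above 0.05 in 9 of the 12 cases, and 0 to 6 genes were then called in all.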

How the results depend on the processing

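Scaling, filters, DESeq2, limma-voom and the fit on all 12 libraries gave 3389 to 3902 genes higher and 3569 to 4524 lower, within 1.5 times the reported counts. Genes higher were 2184 with the GC offset, 2214 with GC and length, and 1848 with the replicate block and GC. Leaving out 1 library gave 2869 to 4054 higher and 3292 to 4608 lower, and after GC correction 1378 to 2531 and 1918 to 3960. Without the first and second day 2 libraries, which leaves 1 library assumed to vary like the others, 4520 and 5181 were called, and 3041 and 5032 after correction. Spread in that fit came from the day 0 libraries alone, with a biological coefficient of variation of 0.1099, against 0.447 at day 2. The assumption was therefore not met, and these counts of calls cannot show whether the results hold. The rank correlation between GC content and day change was 0.688 at a mean of at least 5 CPM and 0.581 to 0.602 without 1 library. It was 0.539 without the first and second day 2 libraries. The interaction called 73 genes with DESeq2, 91 without a filter, 5 with the GC offset and 0 to 6 without 1 library.

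The labels do not say whether the replicate numbers pair the samples. Correlations of same-numbered deviations were -0.02, 0.08 and 0.02, within the -0.17 to 0.13 of other pairs. With 3 libraries a day these values cannot decide it. The replicate block gave 3418 higher and 3859 lower. Directions turned for Dlk1 (-0.64 with GC, -0.43 with GC and length, -0.64 with block and GC), Ifi44 (0.63, 0.50 and 0.63), mt-Cytb (0.72, 0.31 and 0.72) and mt-Co1 (1.35, 1.05 and 1.35). Nfat5 turned with GC and length only (0.13). The cause was not tested.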

Other observations

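The following families were taken by symbol after the data were seen. Of 330 tested Zfp zinc finger genes, 40 were higher and 159 lower, with a median log2 fold change of -1.23, and after the GC correction 8 were higher and 78 lower, with a median of -0.58. These 78 are near the 21.7% of all genes called lower after correction, at 23.6% of the family. Their median transcript GC content was 44.7%, against 49.8% for all tested genes. Of 83 tested cytosolic ribosomal protein genes, at a median GC content of 51.6%, 61 were higher and 3 lower (median 1.09), and 57 and 3 after correction (median 0.74). All tested genes of known GC content and symbol had medians of -0.06 and -0.14. Many ribosomal protein genes have processed copies elsewhere in the genome, so the counts of single members are uncertain.

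Of 55414 identifiers, 337 had no count in the 3 day 0 libraries and over 3 at day 2, and 2858 had none at day 2 and over 3 at day 0. The day 2 libraries detected fewer genes even after thinning, 13657 to 15669 against 17788 to 18486. Whether any of these genes was switched off was not tested.

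The most abundant identifier without a symbol in the table used here was ENSMUSG00000119584, at 3237, 3190.4 and 3067 CPM at day 0 and 9303, 28145 and 12688 CPM at day 2. Its 3 day 2 values spread more widely than those of Fth1, at 19942, 22610.4 and 26079 CPM.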
